A study of Mus musculus with 4 samples.

Results

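Fmo1, Fmo2, Fmo4 and Fmo5 are members of the flavin-containing monooxygenase family, and their expression was followed in mouse liver. They were taken by name, with every probe set whose only gene symbol in the platform annotation was theirs. No rule on their values was used, although earlier results of these data were known. They were 4 of 18193 genes with a single symbol and were read by 10 of the 45101 probe sets on the array. Liver RNA had been hybridised to 4 Affymetrix expression arrays, each from a whole liver slice of a male mouse aged 9 months, a first-generation hybrid of the inbred strains AJ and B6. AB6F1 males (n = 2) were born to an AJ dam mated with a B6 sire, and B6AF1 males (n = 2) to a B6 dam mated with an AJ sire. Both crosses ate chow in a specific-pathogen-free facility and received no intervention. The study was framed around nonalcoholic fatty liver disease, and its labels offer a single comparison, that of the reciprocal crosses. All 4 genes are autosomal, so each male of either cross carried 1 AJ and 1 B6 copy of them, inherited from the opposite parent in the other cross.

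Flavin-containing monooxygenases are membrane proteins of the endoplasmic reticulum that bind the cofactor FAD, take electrons from NADPH and insert an oxygen atom into soft nucleophiles, mostly the nitrogen or sulfur of drugs, dietary amines and sulfides. Unlike cytochromes P450 they load oxygen onto the flavin before the substrate arrives and need no separate reductase. In mice Fmo1 is a broad-specificity form of liver and kidney that also oxidises hypotaurine to taurine, and its hepatic transcript is known to be more abundant in females. Fmo2 is the main form of mammalian lung. Fmo4 is generally expressed at low level and its substrates are poorly known. Fmo5 accepts few amines and instead acts on ketones as a Baeyer-Villiger monooxygenase, and mice that lack it stay leaner and have lower plasma cholesterol.

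The start regions of Fmo2 and Fmo5 are shown because Fmo2 was the member whose arrays separated by cross, and Fmo5 had the widest gap of the 4 between its AB6F1 arrays on the brightest probe set. The sequences are RefSeq's for GRCm38.p6, each running 5′ to 3′ from 250 bases before to 50 bases after an annotated transcript start, with matches to 12 searched motifs in capitals. RefSeq entries were matched for 3 of the 4 genes. Fmo2 has a pair of annotated starts, whose windows are chr1:162898709-162899008 and chr1:162898444-162898743 on the minus strand. The Fmo5 window is chr3:97628769-97629068 on the plus strand.
Fmo2, upstream start: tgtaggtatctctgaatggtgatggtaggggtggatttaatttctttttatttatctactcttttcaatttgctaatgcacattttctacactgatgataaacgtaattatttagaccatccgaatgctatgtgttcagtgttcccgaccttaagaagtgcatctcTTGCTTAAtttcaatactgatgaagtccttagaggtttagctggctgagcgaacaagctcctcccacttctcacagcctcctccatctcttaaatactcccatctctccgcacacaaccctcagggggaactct
Fmo2, downstream start: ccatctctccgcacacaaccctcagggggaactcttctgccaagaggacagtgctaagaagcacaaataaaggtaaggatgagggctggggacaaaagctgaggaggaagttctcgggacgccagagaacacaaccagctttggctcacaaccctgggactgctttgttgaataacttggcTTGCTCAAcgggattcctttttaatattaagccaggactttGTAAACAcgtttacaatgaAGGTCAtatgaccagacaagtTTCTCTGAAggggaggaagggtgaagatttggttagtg
Fmo5: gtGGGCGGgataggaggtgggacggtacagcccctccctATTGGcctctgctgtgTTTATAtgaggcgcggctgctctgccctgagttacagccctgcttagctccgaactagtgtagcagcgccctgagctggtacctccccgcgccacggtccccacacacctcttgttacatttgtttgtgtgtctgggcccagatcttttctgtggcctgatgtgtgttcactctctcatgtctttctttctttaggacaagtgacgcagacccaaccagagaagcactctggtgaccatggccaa
The motifs searched on both strands were TATAAA (a core element), CCAAT (the element of that name), GGGCGG (box bound by Sp1 family factors), GTTAAT (half-site of hepatocyte nuclear factor 1), AGGTCA (nuclear receptor half-site), TGTTTAC (forkhead box A), TTGCNNAA (C/EBP), TGANTCA (Fos and Jun), TTCNNNGAA (STAT factors), TTATGNAA (PAR bZIP factors), CACGTG (E-box) and GCGTG (core of the aryl hydrocarbon receptor element). Both Fmo2 windows held TTGCNNAA, which 10.8% of the 32817 promoter windows of this length hold. The downstream Fmo2 window also held AGGTCA, found in 16.3% of windows, TTCNNNGAA, found in 8.29%, and on the opposite strand TGTTTAC, found in 3.65%. The Fmo5 window held GGGCGG, found in 35.6% of windows, and on the opposite strand CCAAT, found in 37.4%, and TATAAA, found in 13.6%. No matches overlapped one another in these windows. A match describes these letters only and is not evidence of binding.

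Values are the deposited MAS5 signals, a brightness in arbitrary units that the array software computes for each probe set, and every array had been scaled to the same trimmed mean of 500. Array medians stood at 78.0 and 75.9 in AB6F1, against 72.8 and 67.2 in B6AF1. Differences are on the log2 scale as AB6F1 minus B6AF1 and were tested by limma over 11748 genes, each read by its brightest probe set, and a gene was called where its Benjamini-Hochberg adjusted p was under 0.05. Genes with a geometric mean signal under 60.9 were left out of that test. With 2 mice in each cross, an exact permutation test of a single gene cannot give a p under 0.333. The hepatocyte marker Alb, albumin, had signals of 40788 and 38514 in AB6F1, against 40357 and 48625 in B6AF1, and all 10 hepatocyte markers passed the filter. All 10 were lower in AB6F1 (median -0.19, log2), 6 of them without overlap, where 18.7% of all genes tested were. Of the 10, 0 passed limma and 1, Cps1, had an unadjusted limma p under 0.05, where 9.72% of all genes tested did. After quantile normalization 8 of the 10 were lower, with a median of -0.11. Source identifiers of the samples fell in separate blocks for each cross. Whether the blocks mark a difference in handling is not known, and such a difference could not be told apart from cross.

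None of the 4 monooxygenase genes passed limma, where 25 genes, or 0.213% of those tested, did (0.136% as higher in AB6F1, 0.0766% as lower). At an unadjusted limma p under 0.05 there was 1 member, Fmo2, higher in AB6F1, where 9.72% of all genes tested reached that level and 5.84% did so as higher. AB6F1 and B6AF1 arrays stood apart without overlap for 1 member, again Fmo2, and for 41.2% of all genes tested, 22.5% with AB6F1 higher and 18.7% with AB6F1 lower. Leaving out AB6F1 replicate 1 or 2 took the count of 25 called genes to 79 or 241, and leaving out either B6AF1 array took it to 1. No member passed in any of these fits.

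**Figure D1:**
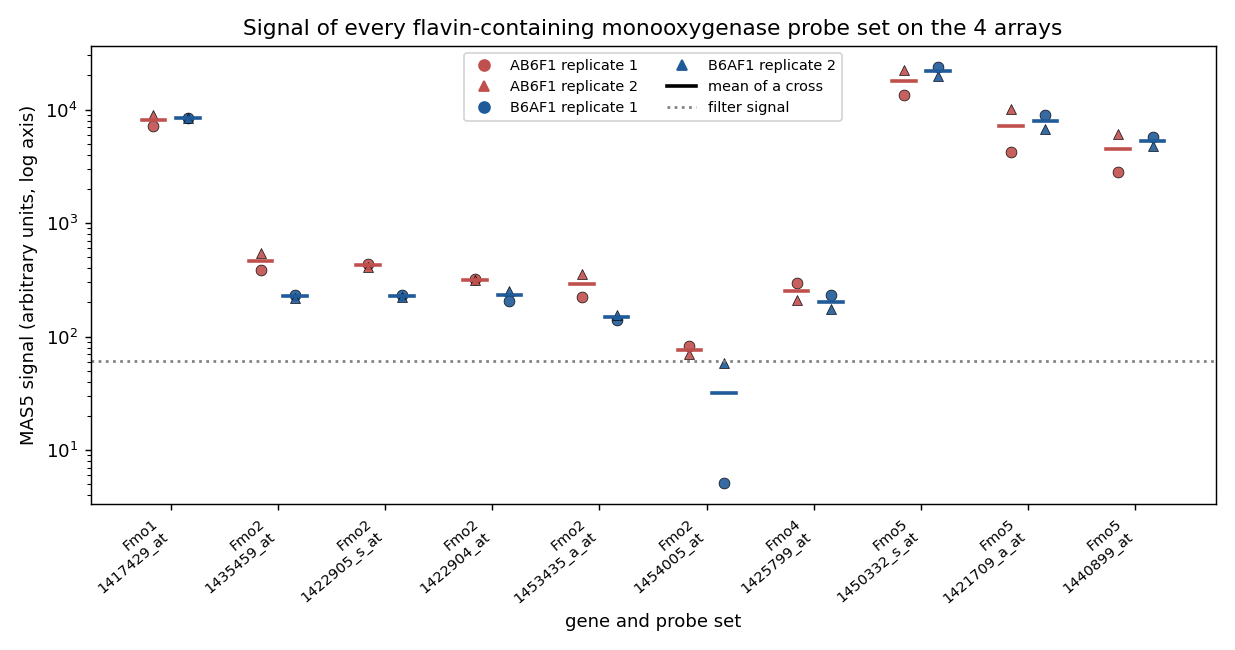
Signal of each of the 10 probe sets on the 4 arrays (log axis, arbitrary units), grouped by gene and, within a gene, from the brightest probe set to the dimmest. AB6F1 points stand left of B6AF1 points, horizontal bars are arithmetic means of a cross, and the dotted line is the filter signal of 60.9. All 5 Fmo2 probe sets lay higher on both AB6F1 arrays, whereas the 3 Fmo5 probe sets were lowest on AB6F1 replicate 1.

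Fmo1 had the smallest difference between the crosses among the 4 genes. Its single probe set, 1417429_at, read 7186.9 and 8883.0 in AB6F1, against 8433.5 and 8348.2 in B6AF1, so that the AB6F1 arrays lay on either side of the B6AF1 arrays. The mean signal was 8035 ± 1199 in AB6F1 livers against 8391 ± 60.3 in B6AF1 livers (SD, n = 2 each). The log2 difference was -0.07 ± 0.14 (SE; limma adjusted p = 0.894). Its 95% interval ran from -0.39 to 0.25, or from 0.763-fold to 1.19-fold on the linear scale. The AB6F1 arrays lay 0.31 apart on the log2 scale, a wider gap than in 59.3% of genes tested, and AB6F1 replicate 1 was the lowest of the 4. Of all genes tested, 20.3% showed a smaller difference in size. The sign of the Fmo1 difference was positive, at 0.082, when AB6F1 replicate 1 was left out.

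Fmo2 was brighter on both AB6F1 arrays with each of its probe sets. On the brightest, 1435459_at, the signals were 387.4 and 544.2 in AB6F1, against 233.2 and 218.5 in B6AF1. The means were 465.8 ± 111 in AB6F1 livers against 225.9 ± 10.4 in B6AF1 livers (SD, n = 2 each), a 2.03-fold ratio of geometric means. The log2 difference of 1.02 ± 0.24 (SE) had a 95% interval from 0.46 to 1.59, an unadjusted limma p of 0.00354 and a limma adjusted p of 0.254. It therefore missed the threshold over all genes, ranking 163rd of 11748 by p. Differences as large in size as that of Fmo2 were uncommon, since 95.8% of genes tested had a smaller one. The log2 difference ran from 0.78 without AB6F1 replicate 2 to 1.27 without AB6F1 replicate 1. Since the arrays did not overlap, leaving out an array could not reverse its sign.

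The other Fmo2 probe sets gave the same order of the crosses with unlike sizes. Probe set 1422905_s_at read 438.5 and 409.9 in AB6F1, against 232.0 and 224.8 in B6AF1, and gave a log2 difference of 0.89 ± 0.22 (SE). Probe set 1453435_a_at read 221.6 and 358.7 in AB6F1, against 140.7 and 154.7 in B6AF1, a log2 difference of 0.93 ± 0.32 (SE). Probe set 1422904_at read 319.8 and 313.9 in AB6F1, against 207.6 and 253.6 in B6AF1, a smaller log2 difference of 0.47 ± 0.24 (SE). These 4 probe sets thus spanned 0.47 to 1.02 on the log2 scale. The fifth, 1454005_at, averaged below the filter signal, at 83.2 and 69.9 in AB6F1, against 5.1 and 58.6 in B6AF1. Its log2 difference of 2.14 ± 1.22 (SE) rested on the value of 5.1, and was 0.38 without B6AF1 replicate 1. With every probe set tested separately, where 0.0887% were called, no Fmo2 probe set passed and the limma adjusted p ran from 0.388 to 0.769. Arrays were higher in AB6F1 without overlap for 20.9% of all probe sets. The 5 carry the same gene symbol and were read on the same 4 RNA samples, so they are not separate evidence.

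Fmo4 did not separate the crosses. Its probe set 1425799_at read 298.3 and 210.3 in AB6F1, against 230.8 and 175.8 in B6AF1, and the lower AB6F1 array fell between the B6AF1 arrays. The means were 254.3 ± 62.2 in AB6F1 livers against 203.3 ± 38.9 in B6AF1 livers (SD, n = 2 each). The log2 difference of 0.31 ± 0.29 (SE) had a limma adjusted p of 0.765. Its 95% interval, from 0.772-fold to 2.002-fold on the linear scale, leaves room for a difference in either direction. It ran from 0.06 without AB6F1 replicate 1 to 0.57 without AB6F1 replicate 2.

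For Fmo5, as for Fmo1 and Fmo4, the log2 gap between the AB6F1 mice was wider than the difference between the crosses, and it was the widest of the 4 genes at 0.72, against 0.50 for Fmo4, 0.49 for Fmo2 and 0.31 for Fmo1. On its brightest probe set, 1450332_s_at, signals were 13508 and 22302 in AB6F1, against 23828 and 19705 in B6AF1. AB6F1 replicate 1 was thus the lowest array, and AB6F1 replicate 2 lay between the B6AF1 arrays. The means were 17905 ± 6219 in AB6F1 livers against 21767 ± 2916 in B6AF1 livers (SD, n = 2 each). The log2 difference was -0.32 ± 0.23 (SE; limma adjusted p = 0.697), with a 95% interval from -0.87 to 0.23. Dropping AB6F1 replicate 2 gave -0.68, with a limma adjusted p of 0.0824, whereas dropping AB6F1 replicate 1 gave 0.042. The crosses therefore could not be ordered for Fmo5.

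The suffix _s_at of the brightest Fmo5 probe set marks probes that can match transcripts of more than 1 gene. Fmo2 probe set 1422905_s_at carries it too. The remaining Fmo5 probe sets lack it and showed the same low array. Probe set 1421709_a_at read 4236.6 and 10166 in AB6F1, against 8984.7 and 6758.6 in B6AF1. Probe set 1440899_at read 2813.2 and 6155.7 in AB6F1, against 5691.7 and 4795.2 in B6AF1. AB6F1 replicate 2 exceeded AB6F1 replicate 1 by 1.65-fold, 2.40-fold and 2.19-fold on the 3 probe sets, in the order given. Log2 differences between the crosses were -0.25 ± 0.34 and -0.33 ± 0.31 (SE) on 1421709_a_at and 1440899_at, with limma adjusted p of 0.907 and 0.855 when every probe set was tested. Among all genes tested, 87.5% had AB6F1 replicates closer together than Fmo5 on its brightest probe set. In 4.89% of genes tested AB6F1 replicate 1 lay below AB6F1 replicate 2 by at least as much, and in 24.7% it was the lowest of the 4 arrays.

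**Figure D2:**
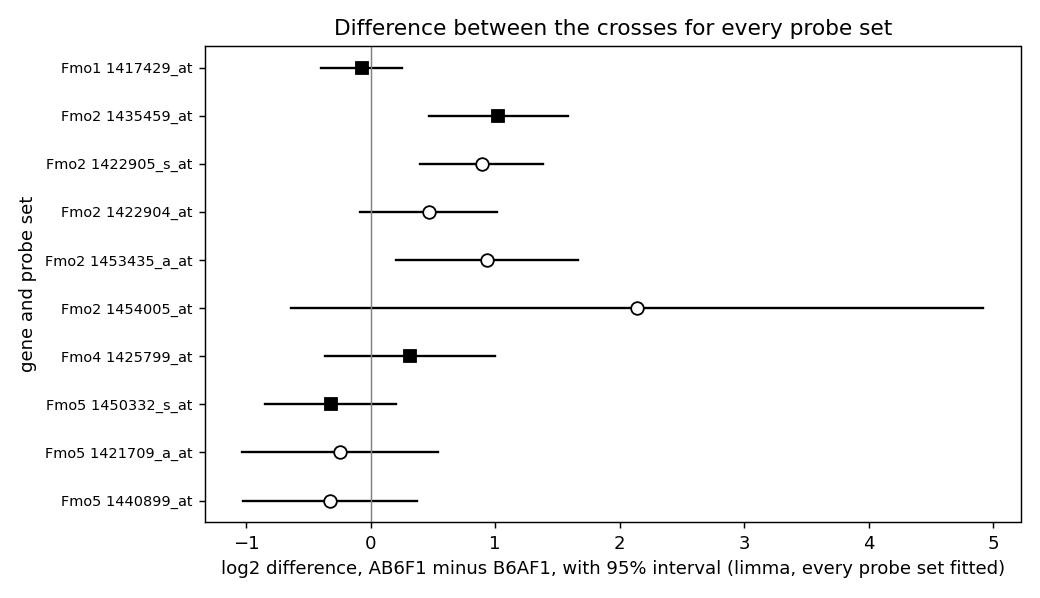
Log2 difference between the crosses (AB6F1 minus B6AF1) for each probe set, with the 95% interval from a limma fit over every probe set. Filled squares are the brightest probe set of a gene and open circles the others. Intervals of 3 Fmo2 probe sets lie above 0 before adjustment, and those of Fmo1, Fmo4 and Fmo5 include 0.

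The livers that differed in Fmo5 also differed in acute-phase transcripts, which liver makes under inflammatory signals. Of 18 acute-phase genes, a list drawn up after the Fmo5 values were seen, all 18 were brighter on AB6F1 replicate 1 than on AB6F1 replicate 2, with a median log2 gap of 0.52, against 53.5% of all genes tested and a median of 0.03. Lcn2, lipocalin 2, read 6539.0 and 1107.1 in AB6F1, against 158.1 and 496.7 in B6AF1. Orm2, an orosomucoid, read 12073 and 2376.3 in AB6F1, against 691.2 and 1111.6 in B6AF1. Apcs, serum amyloid P, read 31325 and 14413 in AB6F1, against 17076 and 15491 in B6AF1. For Crp the log2 gap between the AB6F1 arrays was only 0.02. For Lcn2 and Orm2 both AB6F1 arrays were higher than both B6AF1 arrays, which was not so for Apcs or Fmo5. Of 8 tested macrophage markers 7, all but Cd68, were likewise brighter on AB6F1 replicate 1 than on AB6F1 replicate 2. Between the crosses, 11 of the 18 acute-phase genes were higher in AB6F1 and 7 lower. Saa2 alone passed limma, at 2.98 ± 0.25 (log2, SE; adjusted p = 0.00829), where 0.136% of all genes tested passed as higher. At an unadjusted limma p under 0.05 there were 6, all higher, against 5.84% of all genes tested. Without overlap 7 were higher and 1 lower, against 22.5% and 18.7% of all genes tested. The part of the acute-phase and macrophage values in the Fmo5 signal was not tested.

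**Figure D3:**
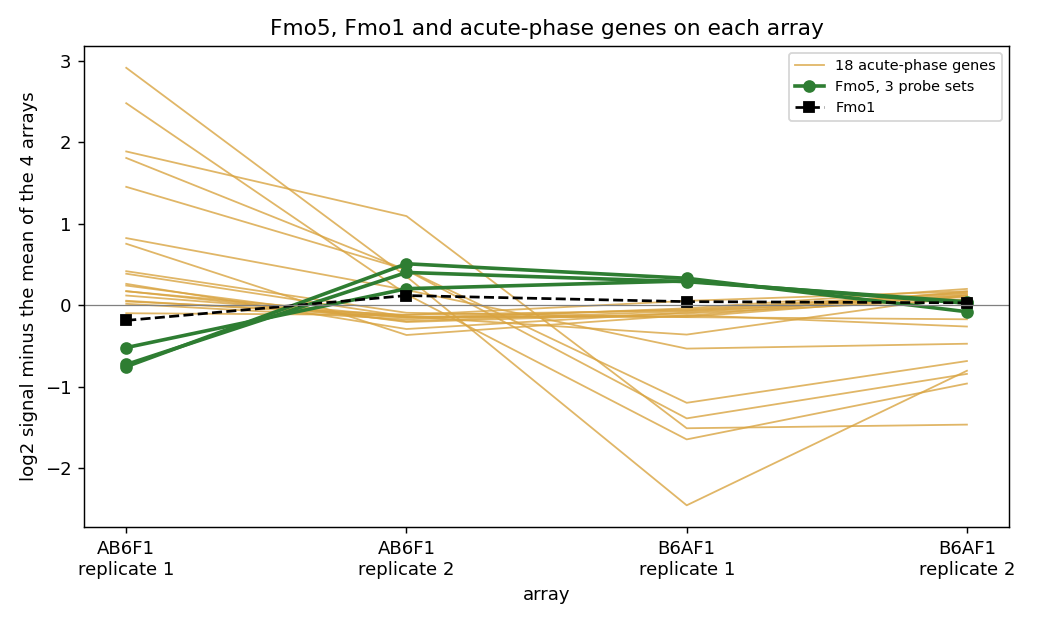
Log2 signal of the 3 Fmo5 probe sets (green), Fmo1 (dashed) and 18 acute-phase genes (yellow) on each array, centred on the mean of the 4 arrays. Lines join the arrays only to trace a gene. Fmo5 lay 0.52 to 0.76 below its mean on AB6F1 replicate 1. On that array 13 of the 18 acute-phase genes, listed after the Fmo5 values were seen, were at their highest. The share of all genes tested that were highest there was not computed.

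Whole liver was used, so more cells of a type and more RNA per cell cannot be told apart, and markers of other cell types are set beside Fmo2. Markers of stellate cells and fibroblasts were higher in AB6F1 for 7 of 8 tested genes, and the list median was 0.79 on the log2 scale against 0.02 over all genes tested. The fibrillar collagens Col3a1 and Col1a2 passed limma, with adjusted p of 0.00931 and 0.0402, where 0.136% of all genes tested passed as higher. The summed signal of the stellate list was 13608 and 16593 in AB6F1, against 10407 and 10011 in B6AF1. Its retinoid-storing enzyme Lrat read 637.3 and 912.2 in AB6F1, against 441.2 and 477.3 in B6AF1. Of the 8 tested genes of this list, 3 were brighter on AB6F1 replicate 1 than on AB6F1 replicate 2, Col1a2 among them, and Lrat and Col3a1 were not. The part of these cells in the Fmo2 difference was not tested.

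Smooth muscle markers were tested for 2 of 4 genes, both higher in AB6F1, and their summed signal was 801.7 and 907.1 in AB6F1, against 536.8 and 440.1 in B6AF1. Macrophage markers were higher for 8 of 8 genes, with summed signals of 13959 and 8912.0 in AB6F1, against 5684.9 and 7726.6 in B6AF1. Endothelial markers were higher for 4 of 6 tested genes, with summed signals of 3618.2 and 3106.6 in AB6F1, against 2704.2 and 3665.9 in B6AF1, which overlapped, and 3 of the 6 were higher after median centring. None of the smooth muscle, macrophage or endothelial markers passed limma, and 1, 7 and 2 of them, all higher, had an unadjusted limma p under 0.05. Of all genes tested, 5.84% reached that level as higher. Lung epithelial markers stayed dim, Sftpc at 43.2 and 99.1 in AB6F1, against 95.8 and 118.7 in B6AF1, and their summed signals were 172.6 and 203.1 in AB6F1, against 207.8 and 213.4 in B6AF1, not higher in AB6F1. Summed signals of the cholangiocyte list were 380.6 and 398.3 in AB6F1, against 290.6 and 305.4 in B6AF1, and those of the lymphocyte list were 399.3 and 243.7 in AB6F1, against 348.7 and 366.9 in B6AF1. Adipocyte markers (148.7 and 58.8 in AB6F1, 90.2 and 30.2 in B6AF1) and kidney tubule markers (229.4 and 130.1 in AB6F1, 179.3 and 131.5 in B6AF1) were dim as summed signals.

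Because Fmo1 is known as a female-biased transcript, sex-biased liver genes are set beside it. Of 13 tested female-biased genes, 12 were higher in AB6F1 (11 or 12 when single arrays were left out), with a list median of 1.11. The exception, Cyp39a1, was lower without overlap, at -1.08 ± 0.21 (log2, SE; limma adjusted p = 0.1745). Past limma rose 5 genes, among them the sulfotransferases Sult2a2 and Sult3a1, the oxidase Hao2 and the transporter Abcd2. Of all genes tested, 0.136% passed as higher and 0.0766% as lower. Of 15 tested male-biased genes, all 15 had negative differences (14 after quantile normalization, and 13 to 15 when single arrays were left out) and 3 fell past limma, the oxysterol hydroxylase Cyp7b1, the complement regulator Susd4 and the anion transporter Slco1a1, with a list median of -1.32. Hao2 was at 1.64 ± 0.13 and Cyp7b1 at -1.89 ± 0.13 (log2, SE; limma adjusted p = 0.00829 and 0.00679). Beside these, Fmo1 was at -0.07 on the log2 scale.

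Lists of genes that supply the cofactors of the monooxygenases, or that oxidise or reduce amines, sulfides and drugs, held no call. Of 4 tested genes of flavin supply, 7 of NADPH supply and 12 of other oxidases and reductases, 0 passed limma. At an unadjusted limma p under 0.05 there were 1 higher and 2 lower, where 9.72% of all genes tested reached that level. Median log2 differences of these lists were 0.14, 0.11 and -0.10, against 0.02 over all genes tested. Centring arrays on their medians, which moved the median of all genes tested to -0.11, turned the NADPH median to -0.02 and left 2 of 4 flavin genes higher.
Rfk, the riboflavin kinase that starts FAD synthesis, read 2383.9 and 2538.9 in AB6F1, against 1987.6 and 2203.8 in B6AF1, which put it at 0.23 ± 0.13 (log2, SE; limma adjusted p = 0.609). Pgd, a dehydrogenase of the pentose phosphate pathway that makes NADPH, read 4054.6 and 4562.4 in AB6F1, against 3335.9 and 1858.0 in B6AF1, which put it at 0.79 ± 0.26 (log2, SE; limma adjusted p = 0.409). Pgls, the lactonase of the same pathway, read 2402.8 and 2304.4 in AB6F1, against 2879.7 and 3346.8 in B6AF1, which put it at -0.40 ± 0.13 (log2, SE; limma adjusted p = 0.409). Rfk and Pgd were higher in AB6F1 and Pgls lower, each without overlap.
Ephx1, microsomal epoxide hydrolase, read 8836.5 and 15231 in AB6F1, against 15963 and 15587 in B6AF1. AB6F1 replicate 1 was the lowest array, as for Fmo5, but unlike Fmo5, Ephx1 was lower in AB6F1 without overlap. Aox1, an aldehyde oxidase, read 3004.2 and 4622.2 in AB6F1, against 5520.2 and 4974.6 in B6AF1, lower in AB6F1 without overlap (log2 difference -0.49 ± 0.20, SE; limma adjusted p = 0.501). So was Ephx2, at -0.31 ± 0.15 (log2, SE; limma adjusted p = 0.557). Of the 12 oxidases and reductases, 3 were thus lower and 1 higher without overlap, against 18.7% and 22.5% of all genes tested.

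In pathways that make or use substrates of the family, most genes were lower in AB6F1 but none passed limma. In methylamine and choline metabolism 8 of 10 tested genes were lower in AB6F1 (list median -0.19, log2), 6 of the 10 were lower without overlap, where 18.7% of all genes tested were, and 0 had an unadjusted limma p under 0.05. The hepatocyte markers had the same median of -0.19 and also 6 of 10 lower without overlap, and the part of these cells in the list's values was not tested. After quantile normalization the median of the methylamine and choline list was -0.095. Sardh, sarcosine dehydrogenase, was at -0.35 ± 0.15 and Pemt, which methylates phosphatidylethanolamine, at -0.23 ± 0.13 (log2, SE; limma adjusted p = 0.513 and 0.610). In taurine and hypotaurine metabolism 4 of 6 tested genes were lower, with a median of -0.17. Of the 6, 2 had an unadjusted limma p under 0.05, where 9.72% of all genes tested did. Csad, cysteine sulfinate decarboxylase, which makes the hypotaurine that Fmo1 oxidises, read 3798.7 and 2888.4 in AB6F1, against 8111.3 and 4608.8 in B6AF1. Its log2 difference of -0.88 ± 0.27 (SE) had an unadjusted limma p of 0.013 and a limma adjusted p of 0.384, and the crosses did not overlap. Slc6a13, a taurine carrier of hepatocytes, was at -0.37 ± 0.12 (log2, SE; limma adjusted p = 0.401).

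Among 15 tested regulators of hepatic drug and sex-biased genes, 7 were higher and 8 lower in AB6F1 (4 and 11 after median centring), and 0 passed limma. The constitutive androstane receptor Nr1i3 read 1339.2 and 1403.8 in AB6F1, against 1644.8 and 2015.0 in B6AF1, lower without overlap at -0.41 ± 0.15 (log2, SE; limma adjusted p = 0.452). The growth hormone receptor Ghr was at -0.29 ± 0.11 and the aryl hydrocarbon receptor Ahr at -0.26 ± 0.12 (log2, SE; limma adjusted p = 0.463 and 0.560). At an unadjusted limma p under 0.05 there were 2 regulators, Nr1i3 and Ghr, both lower, or 2 of 15 where 9.72% of all genes tested reached that level.

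**Figure D4:**
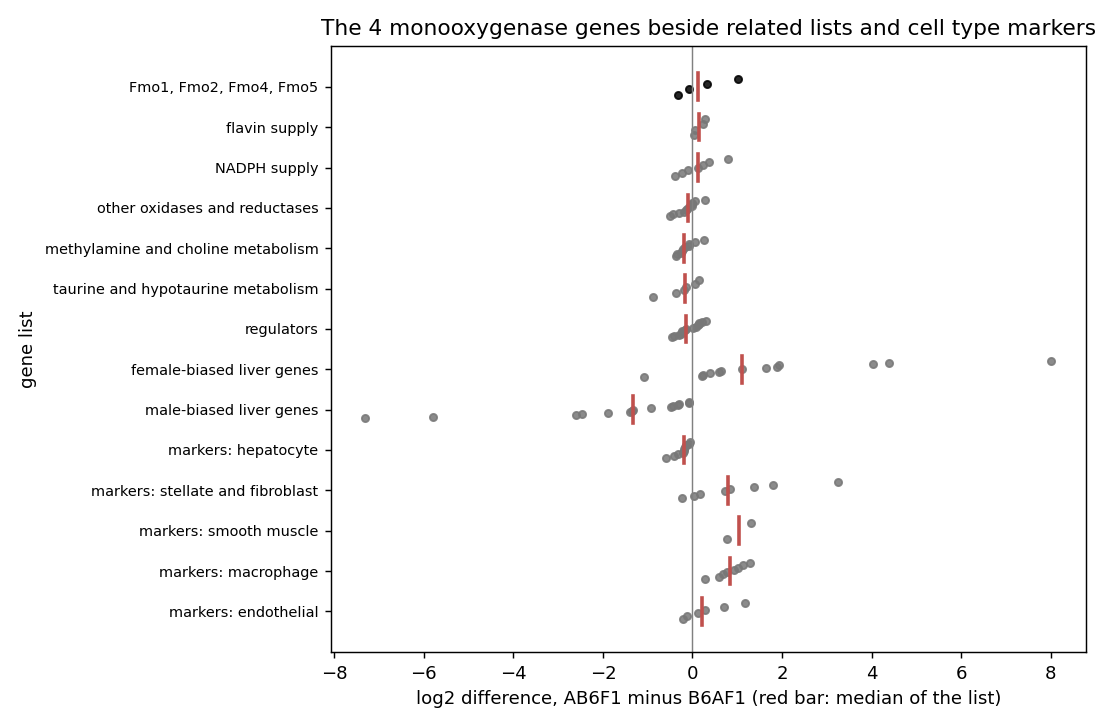
Log2 differences (AB6F1 minus B6AF1) of the 4 monooxygenase genes and of the tested members of related lists and cell type markers, with 1 point for each gene and a red bar at the median. The monooxygenases lie between -0.32 and 1.02, with Fmo2 the highest of the 4.

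Fmo4, Fmo1 and Fmo2 lie next to each other on chromosome 1 among genes with a probe set, and Fmo5 lies on chromosome 3. Centred log2 values of Fmo1 and Fmo2 lay 1.10 apart by Euclidean distance over the 4 arrays, and those of Fmo1 and Fmo4 lay 0.74 apart. Fmo5 was nearer to Fmo1 than either of those, at 0.43. Prrc2c, which precedes Fmo4, was at 0.30 ± 0.31 (log2, SE; limma adjusted p = 0.792), and Mroh9, which follows Fmo2 among genes with a probe set, was below the filter. The genes on either side of Fmo5 were higher in AB6F1 without overlap, unlike Fmo5, where 22.5% of all genes tested were. Chd1l was at 0.34 ± 0.17 and Prkab2 at 1.27 ± 0.52 (log2, SE; limma adjusted p = 0.587 and 0.5004). Prkab2 was dim, at 112.3 and 156.3 in AB6F1, against 75.9 and 39.7 in B6AF1, the last under the filter signal of 60.9.

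The tested genes whose centred log2 values lay nearest to each member are given as a description over 4 arrays, in which close matches are easily found among 11747 genes. Nearest to Fmo2 were Lgals1, galectin-1, at a distance of 0.06, then Zfp536 and Tppp at 0.15 and 0.16. Lgals1 read 11605 and 16390 in AB6F1, against 6836.9 and 6794.8 in B6AF1. Nearest to Fmo5 were Acrbp, Akr1c19, an aldo-keto reductase, and Zfpm1, at 0.02 to 0.05. Akr1c19 read 2162.7 and 3613.1 in AB6F1, against 3873.2 and 3106.1 in B6AF1. Nearest to Fmo1 were Ndufs5, a subunit of respiratory complex I, Emc6 and Akip1, at 0.01 to 0.02. Nearest to Fmo4 were Suco, Cic and the membrane protease Adam10, at 0.04 to 0.06.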

How the data were processed

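Liver RNA of 4 mice was profiled, 1 array each. The deposited values are a linear intensity for each probe set, made with MAS5 (version not stated), per the submitters' processing notes. From the values, the mean without the lowest and highest 2% of probe sets is 500 on every array, so that a shift common to every transcript is hidden. Depth has no counterpart here, and the number of arrays limits precision. Detection calls and any genome build of the annotation are not given in the sources used here. The annotation gave 1 symbol for 34945 probe sets, and symbols were updated through the RefSeq table of GRCm38.p6 for 34741.

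Each gene was read by its brightest probe set by mean log2 signal. Genes under the median of all probe sets were left out. Log2 signals, with no pseudocount, were fitted with limma 3.58.1 in R 4.3.3 (lmFit, eBayes with an intensity trend), two-sided, and the fit was tested on simulated data. The labels number mice as biological replicates.

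The members, lists and alternatives were chosen with earlier results of these data known, and the acute-phase list was added last. Text names all member probe sets, the 3 nearest genes, genomic neighbours, up to 4 genes of smallest p from a list, and Alb. Lrat, Des, Dcn, Reln, Cd68, Cyp39a1, Lcn2, Orm2, Apcs and Crp fall outside this rule and were chosen after their values were seen. Alternatives were quantile normalization, median centring, 16 added before log2, other filters, other probe set choices, other variance moderation, a replicate block and leaving out each array.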

Additional observations from a re-analysis of the deposited data

How the results depend on the processing

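No member passed limma under any alternative run, and the signs of Fmo2 and Fmo4 held throughout. For Fmo2, whose arrays did not overlap, leaving out an array could not reverse the sign. Leaving out each array in turn gave log2 differences from -0.22 to 0.082 for Fmo1, 0.78 to 1.27 for Fmo2, 0.06 to 0.57 for Fmo4 and -0.68 to 0.042 for Fmo5, with the positive values of Fmo1 and Fmo5 arising without AB6F1 replicate 1. A lone remaining array is assumed there to vary like the other cross. The filter at the 75th percentile left out Fmo2 and Fmo4. The limma adjusted p of Fmo2 ran from 0.105 to 0.876 over its alternatives. The number of genes called, 25, was 50 after median centring, 40 when every probe set was tested and 0 without the intensity trend (limma; 1044 at an unadjusted p under 0.05, and 32 called with robust moderation), and ran from 1 to 241 when an array was left out. The cause was not tested. With the replicate number as a block 62 genes were called, and no member was. Fmo1, Fmo2, Fmo4 and Fmo5 were again at -0.07, 1.02, 0.31 and -0.32. These differences could not move, since each block held an array of each cross. Same-numbered arrays did not deviate together from their cross means (correlation -0.03 over genes). With so few arrays in each cross, that value cannot decide whether the numbers pair the mice. The dimmest Fmo2 probe set, which averaged below the filter signal, had the largest error of the 10 member probe sets (SE 1.22, log2).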
